A study of Mus musculus with 12 samples.

Results

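The interferon-stimulated genes described here are 46 listed genes whose transcription rises after interferon signaling, taken by symbol from the table of sorted lymph node (LN) T cells. All 46 were among the 12809 genes of the table, and all 46 were among the 11595 genes with at least 1 CPM (read counts scaled to the depth of the library and here also divided by a composition factor) in at least 3 of the 12 libraries. By role they comprised 5 genes of signaling and transcription, 4 sensors of foreign nucleic acid, 17 antiviral effectors, 5 oligoadenylate synthetases, 3 genes of the PARP and DTX3L group, 5 PYHIN genes of the Ifi200 cluster, 5 interferon-inducible GTPases and 2 immunoproteasome subunits.

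Interferons reach T cells through cell-surface receptors that activate JAK kinases. Type I interferons lead to a complex of STAT proteins and IRF9 that binds the interferon-stimulated response element (ISRE) in promoters, whereas interferon-gamma leads to STAT dimers that bind the gamma-activated site (GAS) and induce IRF1, which in turn binds ISRE-like letters. *Ifit*, *Oas*, *Mx1*, *Rsad2* and *Isg15* are classical targets of type I interferons, and *Irf1*, *Gbp2*, *Igtp* and *Irgm1* are classical targets of interferon-gamma, although many of these genes respond to both. T cells that have met no infection still transcribe them at a low, tonic level.

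Female B6 mice aged 10 weeks and female FlipFlop mice aged 14 weeks gave LN from which CD4 and CD8 T cells were sorted, and each of the 4 groups had 3 libraries, with the strain of all given as C57BL/6. FlipFlop mice carry *Cd8a* gene loci that encode CD4 (*Cd8*CD4, made in embryonic stem cells of another strain, with genes of that strain remaining) and *Cd4* gene loci that encode CD8 (*Cd4*CD8), so the study compares which of surface coreceptor and coreceptor gene locus goes with the lineage of a T cell. B6 CD4 and FlipFlop CD8 T cells are called helper-lineage here and B6 CD8 and FlipFlop CD4 T cells cytotoxic-lineage, as in the study. Age differs together with strain, so the 2 cannot be told apart in any comparison between B6 and FlipFlop mice. The sources do not say whether each library came from a separate mouse, so p-values measure the spread between these libraries only. In such bulk samples fewer cells of a type and less RNA per cell cannot be told apart.

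The stretches upstream of the annotated start are shown for the genes on which the results turn, because interferon-induced factors bind there. They are read 5′ to 3′ on the strand of the gene, from position -140 to -21 of RefSeq windows (GRCm38.p6), and capitals mark the letters GAAANNGAA, the core of the ISRE, or TTCNNNGAA, the letters of the GAS, on either strand. Capitals that run on are overlapping matches.
Ifit1 (chr19:34640749-34640868, plus strand): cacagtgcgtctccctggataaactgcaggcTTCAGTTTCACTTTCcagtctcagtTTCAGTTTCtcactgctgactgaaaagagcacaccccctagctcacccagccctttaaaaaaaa
Isg15 (chr4:156200839-156200958, minus strand): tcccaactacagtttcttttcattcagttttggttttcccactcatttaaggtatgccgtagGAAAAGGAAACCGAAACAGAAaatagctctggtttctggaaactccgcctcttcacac
Oas3 (chr5:120777680-120777799, minus strand): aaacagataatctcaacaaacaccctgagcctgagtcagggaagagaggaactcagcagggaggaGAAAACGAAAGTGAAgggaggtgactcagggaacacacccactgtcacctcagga
Gbp2 (chr3:142620523-142620642, plus strand): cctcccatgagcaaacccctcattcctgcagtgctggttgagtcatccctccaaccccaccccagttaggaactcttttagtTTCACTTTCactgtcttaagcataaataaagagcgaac
Igtp (chr11:58199416-58199535, plus strand): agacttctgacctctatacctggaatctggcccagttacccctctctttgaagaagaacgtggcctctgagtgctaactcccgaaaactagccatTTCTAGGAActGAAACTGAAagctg
Irf1 (chr11:53769874-53769993, plus strand): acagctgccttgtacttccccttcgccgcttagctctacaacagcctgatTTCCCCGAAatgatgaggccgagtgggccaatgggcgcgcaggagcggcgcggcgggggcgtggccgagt
Ifi206 (chr1:173491339-173491458, minus strand): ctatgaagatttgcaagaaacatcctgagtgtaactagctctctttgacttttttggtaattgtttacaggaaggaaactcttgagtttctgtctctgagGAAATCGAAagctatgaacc
Ifi208 (chr1:173673525-173673644, plus strand): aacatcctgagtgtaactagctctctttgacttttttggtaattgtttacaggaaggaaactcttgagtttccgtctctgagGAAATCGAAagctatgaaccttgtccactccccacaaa
Ifi213 (chr1:173599293-173599412, minus strand): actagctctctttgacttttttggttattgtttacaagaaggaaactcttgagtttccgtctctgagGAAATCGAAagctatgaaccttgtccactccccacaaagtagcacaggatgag
Ifi203 (chr1:173942513-173942632, minus strand): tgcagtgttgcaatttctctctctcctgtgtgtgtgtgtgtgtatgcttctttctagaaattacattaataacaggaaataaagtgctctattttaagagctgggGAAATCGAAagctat

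*Ifit1* and *Isg15* each held 3 matches to the ISRE core and *Oas3* held 2, whereas in *Irf1* the capitals are a GAS and in *Igtp* a GAS at -45 followed by an ISRE core at -34. The 3 Ifi200 genes *Ifi206*, *Ifi208* and *Ifi213* carried the same letters and nearly the same stretch: set side by side on the match, *Ifi206* and *Ifi208* had 101 identical of 102 bases, *Ifi208* and *Ifi213* 103 of 105, and *Ifi206* and *Ifi213* 84 of 87. *Ifi203* had the same letters in a stretch that otherwise differed, with 43 of 82 bases identical to *Ifi213*. RefSeq windows of 300 bases, from 250 bases before to 50 after the start, were at hand for 37 of the 46 genes. The ISRE core stood in 23 of these 37 genes (62.2%), against 9.76% of the 27025 genes with a window and 8.56% of all 32851 windows. The GAS letters stood in 11 (29.7%), against 9.55% of genes and 8.3% of windows. A match describes letters only, and *Irf1* and *Ifi203*, which have more than 1 annotated start, are shown at the start whose window holds the match.

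Reads on the listed genes numbered 26600000 to 33100000 per library, and 3 reads, the limit that a count of 0 allows, corresponded to 0.0857 to 0.120 CPM, for counting error only. *Cd4* measured 637 to 1090.3 CPM in the CD4 libraries and 0.600 to 2.40 CPM in B6 CD8, but 40.9 to 43.6 CPM in FlipFlop CD8 libraries. *Cd8a* measured 1472 to 1499.6 CPM in B6 CD8, 138 to 159 in FlipFlop CD8 and at most 1.59 in the CD4 libraries, and *Zbtb7b*, which encodes the helper factor ThPOK, measured 162 to 203 CPM in helper-lineage and 1.16 to 2.79 CPM in cytotoxic-lineage libraries. All 7 T cell markers were detected, with a summed level of 3670 to 5372 CPM. Of the other cell types, all 7 B cell markers were listed at a summed 536 to 687 CPM, of which *Ighm* alone held 467 to 636 CPM. Of 10 myeloid markers 8 were listed at 9.85 to 42.2 CPM, of 6 plasmacytoid dendritic cell markers 4, without *Siglech*, and of 6 NK cell markers 3 (*Nkg7*, *Klrd1* and *Klrb1c*, not *Ncr1*). The sum of these 3 was 556 to 609.6 CPM in B6 CD8 and 339.9 to 355 in FlipFlop CD4, against 15.6 to 30.1 in B6 CD4 and 26.0 to 82.1 among FlipFlop CD8 libraries. Regulatory T cell markers (5 of 5, with *Foxp3*) summed to 277 to 379 CPM in B6 CD4 and 821 to 978 in FlipFlop CD8, against 14.2 to 31.3 CPM in cytotoxic-lineage libraries.

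Most members were highest in the same library of each group, and this is given first because every comparison rests on these libraries. In each group replicate 3 had the highest value of its 3 libraries for most members: 41 of 46 in B6 CD4, 45 in B6 CD8, 39 in FlipFlop CD4, and 38 among FlipFlop CD8 libraries. Over all tested genes the same libraries were highest for 32.7%, 31.3%, 36.2% and 31.0%. The value exceeded 1.5 times the mean of the other 2 libraries for 23, 22, 24 and 20 members in replicate 3, against 4.74%, 3.27%, 3.38% and 1.75% of all tested genes, and for 0 members in any library numbered 1 or 2. For those 8 libraries the share of all tested genes was 2.86%, 2.48%, 2.59% and 1.76% in B6, and 3.11%, 2.52%, 2.56% and 1.76% in FlipFlop T cells. Among 80 other interferon-stimulated genes that were tested, replicate 3 was highest for 52, 65, 54 and 52. No test was made of these counts, since a library is not a group of the study.

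**Figure D1:**
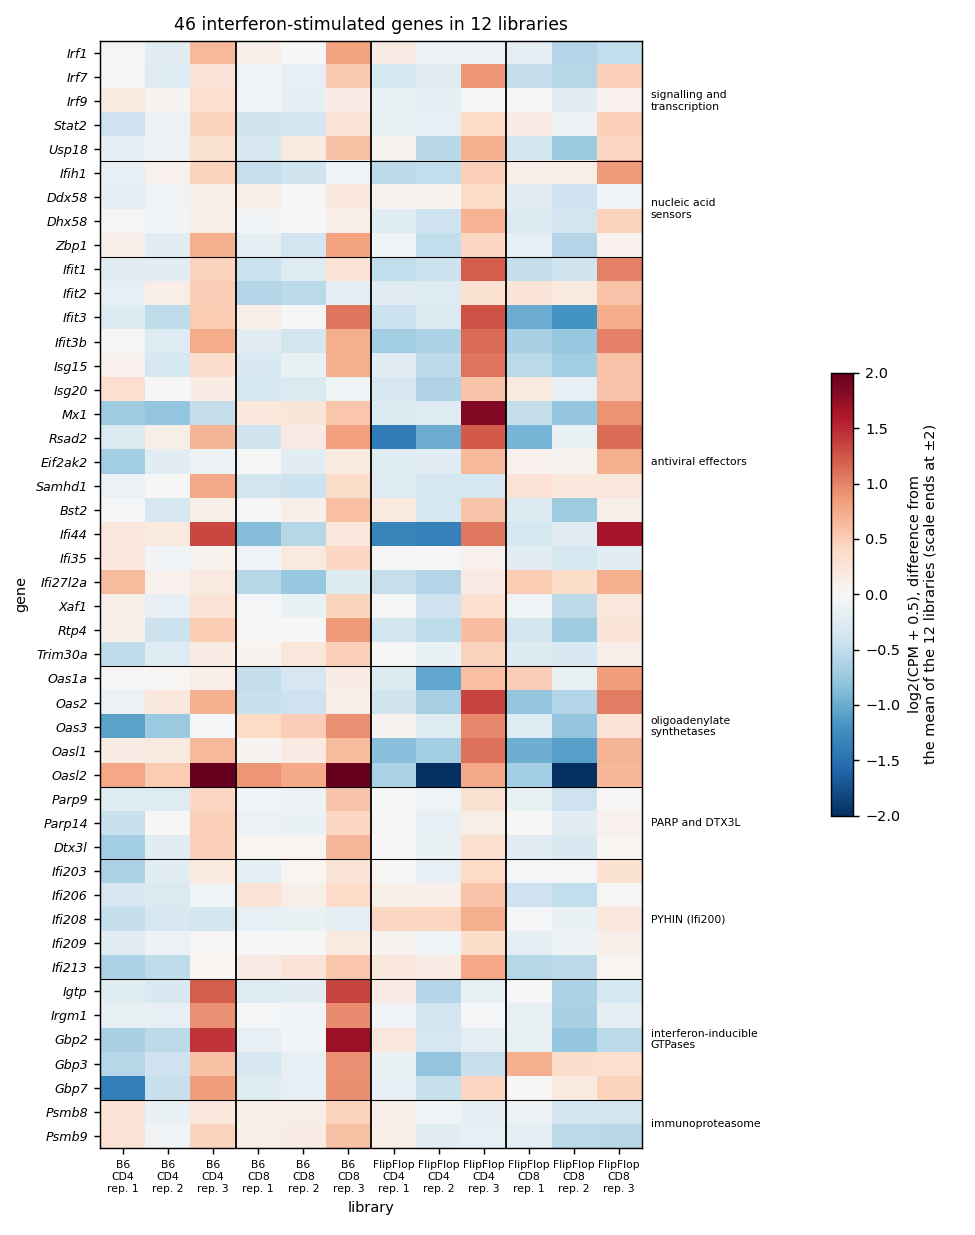
Heat map of the 46 genes (rows, by role group) in the 12 libraries (columns, by group), colored by the difference of log2(CPM + 0.5) from the gene's mean over the 12 libraries; colors end at ±2, beyond which *Oasl2* lies in some libraries. In replicate 3 of both B6 groups the interferon-inducible GTPases are high, and in replicate 3 of both FlipFlop groups most *Ifit* and *Oas* genes are.

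The genes that stood out in replicate 3 were not alike in the 2 strains. Values are listed in the order of replicates 1, 2 and 3. *Igtp*, a GTPase of the IRG family, measured 227, 218 and 622 CPM in B6 CD4 and 225, 231 and 690.5 in B6 CD8, but 301, 179 and 243 among FlipFlop CD4 and 267, 174 and 212 among FlipFlop CD8 libraries. *Gbp2*, a guanylate-binding protein that attacks the vacuoles of intracellular microbes, measured 95.2, 104 and 410.0 and 133, 143 and 499 CPM in the CD4 and CD8 libraries of B6, and 175, 118 and 130.4 and 135, 87.7 and 103 CPM in those of FlipFlop mice. The third library was thus 4.13-fold and 3.61-fold the mean of the other 2 in B6, and 0.892-fold and 0.921-fold in FlipFlop T cells. *Irgm1*, another IRG GTPase, showed 128.9, 128 and 272 CPM in CD4 libraries of B6 and 139, 109.6 and 139.7 CPM in those of FlipFlop mice. Over the 5 GTPases the median ratio of replicate 3 to the other 2 was 2.79 and 2.27 for CD4 and CD8 T cells of B6, and 1.01 and 0.96 for those of FlipFlop mice. In the FlipFlop groups *Igtp*, *Gbp2*, *Gbp3*, *Irf1*, *Samhd1*, *Psmb8* and *Psmb9* were highest in replicate 1 instead. The GTPase *Gbp7* was highest in replicate 3 of every group, with ratios of 3.22 and 2.20 for CD4 and CD8 T cells of B6. Its ratios were 1.66 and 1.27 for those of FlipFlop mice.

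The *Oas* genes and most *Ifit* genes had the other order, with *Ifit2* as the exception. *Ifit1*, which binds viral RNA that lacks host cap marks, measured 32.1, 33.8 and 106 CPM in CD4 and 32.6, 34.4 and 92.2 in CD8 libraries of FlipFlop mice, but 38.8, 38.8 and 61.9 among B6 CD4 and 33.6, 38.0 and 56.0 among B6 CD8 libraries. *Mx1* measured 1.15, 1.16 and 6.66 and 0.932, 0.661 and 3.20 CPM in CD4 and CD8 libraries of FlipFlop mice, and at most 2.42 CPM in B6 libraries. *Rsad2*, which encodes viperin, measured 2.23, 3.12 and 16.3 CPM in CD4 libraries of FlipFlop and 5.37, 7.33 and 11.0 CPM in those of B6 mice. Replicate 3 was 3.22-fold the mean of the other 2 for *Ifit1* in FlipFlop CD4 and 1.60-fold for B6 CD4. For *Ifit2* the ratios were 1.45 and 1.27 for CD4 and CD8 T cells of FlipFlop and 1.41 and 1.29 for those of B6 mice. The median ratio over the 5 genes of the oligoadenylate synthetase group, of which *Oasl1* and *Oasl2* are synthetase-like, was 3.81 and 3.50 for CD4 and CD8 T cells of FlipFlop, and 1.67 and 1.48 for those of B6 mice. Over the 17 antiviral effectors it was 2.09 and 1.57 in FlipFlop, and 1.41 and 1.47 in B6 T cells. For the 5 PYHIN genes the medians were 1.37 and 1.26 for CD4 and CD8 T cells of FlipFlop, and 1.20 and 1.15 for those of B6 mice.

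**Figure D2:**
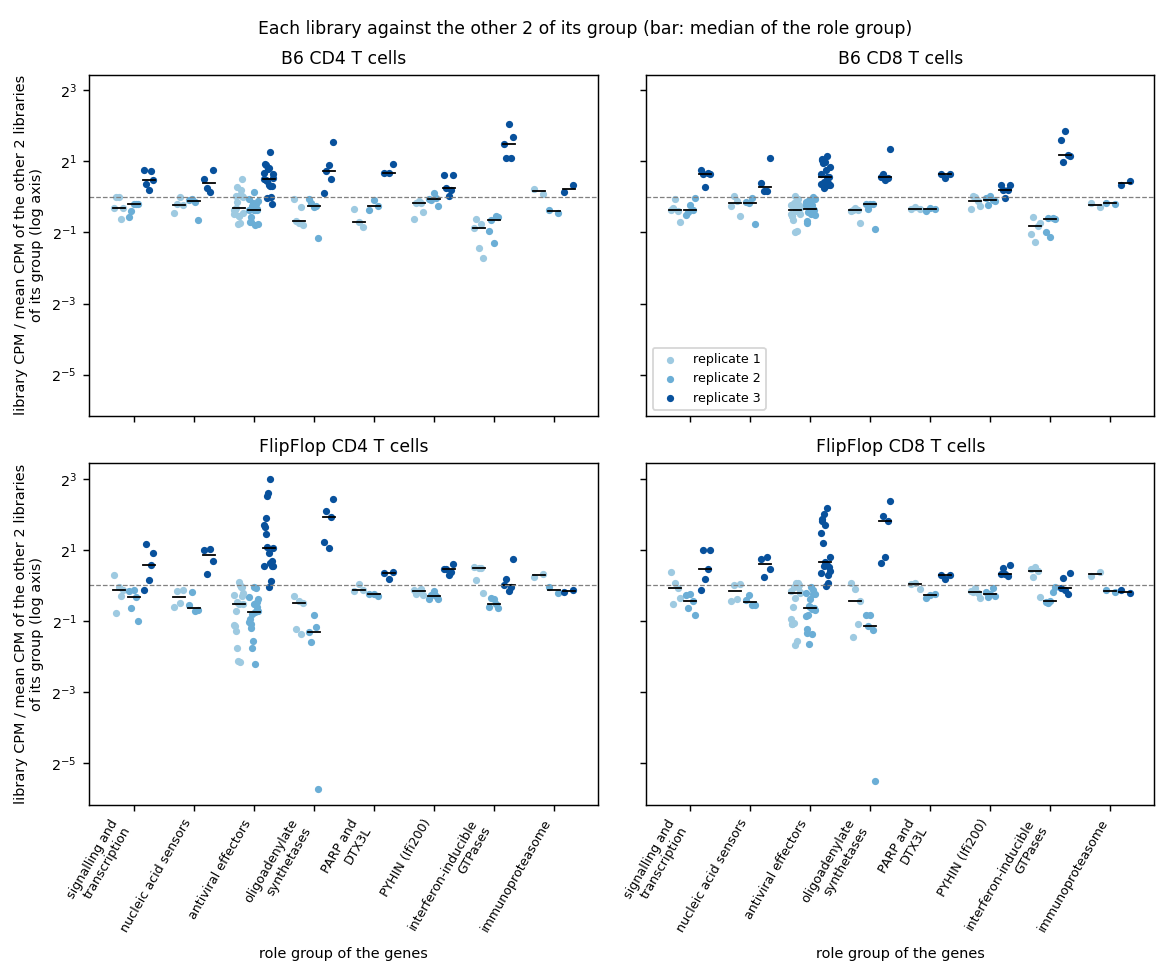
Each point is the CPM of a gene in a library divided by its mean in the other 2 libraries of the group (y axis, log scale), by role group (x axis) and replicate (color), with the median as a bar. The third library lies above 1 for most role groups, highest for the GTPases in B6 (medians 2.79 and 2.27) and for the oligoadenylate synthetases in FlipFlop T cells (medians 3.81 and 3.50); *Oasl2* is the point near the foot of both FlipFlop panels in replicate 2.

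*Ifng*, which is no member, was highest in the same library of each group as *Igtp* and *Gbp2*. It was the only one of 11 named interferon genes that was listed, and measured 0.825, 0.581 and 5.39 CPM in B6 CD4 and 0.337, 0.160 and 0.497 in B6 CD8, highest in replicate 3 of each. Among FlipFlop libraries it measured 0.557, 0.109 and 0.0372 CPM for CD4 and 3.25, 0.893 and 1.20 CPM for CD8, highest in replicate 1 of each. Of these, 0.0372 lies under the level of 3 reads and 0.109 at it. No B6 CD8 value exceeded 0.497 CPM, so the order in these 2 groups rests on few reads. Levels did not rank alike between groups. B6 CD8 replicate 3 had 0.497 CPM beside 690.5 for *Igtp*, and FlipFlop CD8 replicate 1 had 3.25 beside 267. Summed myeloid markers were 26.6, 24.6, 42.2 CPM in B6 CD4 and 17.2, 11.0, 27.5 in B6 CD8, highest in replicate 3, and 11.8, 10.9, 9.85 among FlipFlop CD4 and 33.4, 18.6, 29.9 among FlipFlop CD8 libraries, where replicate 1 was highest. Of the defining myeloid genes *Adgre1* and *Cd14* were not listed and *C1qa* did not exceed 2.14 CPM. The part of these genes and cells in the values of the third libraries was not tested.

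Libraries with the same number resembled each other across the coreceptor as well. Over the 46 members the deviations of same-numbered CD4 and CD8 libraries from their group means had a Pearson r of 0.517, 0.783 and 0.865 for B6 replicates 1 to 3, and of 0.951, 0.937 and 0.969 for FlipFlop replicates. Among B6 libraries of unlike number, CD4 replicate 2 with CD8 replicate 1 had 0.575, above the 0.517 of replicate 1, and CD4 replicate 1 with CD8 replicate 2 had 0.340, while in FlipFlop libraries of unlike number r was at most 0.0451. These describe 46 genes in a pair of libraries and are not a test. Neither the labels nor the methods say what the number stands for.

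Lineage was compared first, as helper-lineage (B6 CD4 and FlipFlop CD8) minus cytotoxic-lineage libraries (B6 CD8 and FlipFlop CD4), 6 libraries against 6. Of the 46 members 8 differed at a limma adjusted p under 0.05, tested over all 11595 genes with Benjamini-Hochberg adjustment, of which 3 were higher (*Ifi27l2a*, *Ifit2* and *Samhd1*) and 5 lower in the helper lineage (*Oas3*, *Ifi213*, *Ifi206*, *Ifi208* and *Ddx58*). This share, 8 of 46, lies under the 39.3% of all tested genes that passed the same threshold, 19.9% higher and 19.4% lower. The largest of these differences was below 1 on the log2 scale, and 0 members passed a limit of 5-fold at an unadjusted p under 0.05, against 1.61% of all. The members' median difference was -0.13, against -0.03 over all tested genes, and 14 of 46 were above 0. In values without the authors' composition factor, 5 members were higher and 4 lower, against 40.8% of all tested genes. Without FlipFlop CD4 replicate 3, 6 were higher and 5 lower, against 37.6% of all. Without replicate 3 of every group, an alternative chosen after seeing these libraries, 16 members passed, 7 higher and 9 lower, against 27.9% of all tested genes. These 16 held the same 8 members and, with them, *Ifih1*, *Isg20*, *Ifi44* and *Oas1a* higher and *Ifit3*, *Mx1*, *Trim30a* and *Dtx3l* lower. With the replicate number as a block, which is shown to pair the FlipFlop libraries only, 28 members passed, 9 higher and 19 lower, against 44.5% of all, so 20 members described as not called for lineage were called in that fit. These were *Irf9*, *Ifih1*, *Isg20*, *Ifi44*, *Oas1a* and *Gbp3* higher and *Irf1*, *Irf7*, *Usp18*, *Ifit3*, *Mx1*, *Bst2*, *Trim30a*, *Parp9*, *Dtx3l*, *Ifi209*, *Irgm1*, *Gbp2*, *Psmb8* and *Psmb9* lower in the helper lineage. Marker genes of the cell type lists moved with lineage as well, with summed levels as given above. Of these, 5 of 8 listed myeloid genes and 5 of 5 regulatory T cell genes were called higher in the helper lineage. In the NK cell list *Nkg7* and *Klrd1* were lower and *Klrb1c* higher. Whether these transcripts came from other cells or from the sorted T cells themselves is not known. Their part in the members' differences was not tested.

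The Ifi200 cluster on chromosome 1 held 3 of the 5 members that were lower in the helper lineage. Several PYHIN proteins bind DNA and act as sensors of it in the cell, but not every gene of the cluster need encode such a protein. *Ifi206* measured 155, 161 and 189 CPM in B6 CD4, 147, 139 and 199 in FlipFlop CD8, 237, 212 and 256 in B6 CD8 and 212, 211 and 293 in FlipFlop CD4 libraries. All 6 helper-lineage libraries lay below all 6 cytotoxic-lineage libraries, and replicate 3 was the highest of each group. The lineage difference on the log2(CPM + 0.5) scale was -0.52 (standard error 0.11, adjusted p = 0.00219). *Ifi213* measured 33.8, 37.0 and 54.2 CPM in B6 CD4, 35.3, 36.5 and 53.9 in FlipFlop CD8, 58.6, 62.9 and 77.2 in B6 CD8 and 61.6, 58.3 and 90.3 in FlipFlop CD4 libraries. Again the 6 and 6 libraries did not overlap, which held for 2 of the 46 members and for 16.9% of all tested genes, and the difference was -0.71 (standard error 0.15, adjusted p = 0.00274). *Ifi208* measured 130.2, 145 and 139.5 CPM in B6 CD4, 178, 165 and 212 in FlipFlop CD8, 162, 165 and 159 in B6 CD8 and 241, 243 and 298 in FlipFlop CD4 libraries. Within each strain the lineages did not overlap, but FlipFlop CD8 libraries reached the range of B6 CD8 libraries and above it, and the lineage difference was -0.36. *Ifi203* and *Ifi209*, with differences of -0.13 and -0.17, were not called. These genes lie between 173468485 and 173942672 on chromosome 1 (GRCm38) and are close copies, so reads that fit more than 1 of them could have been split in the authors' counting and their single values are uncertain.

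**Figure D3:**
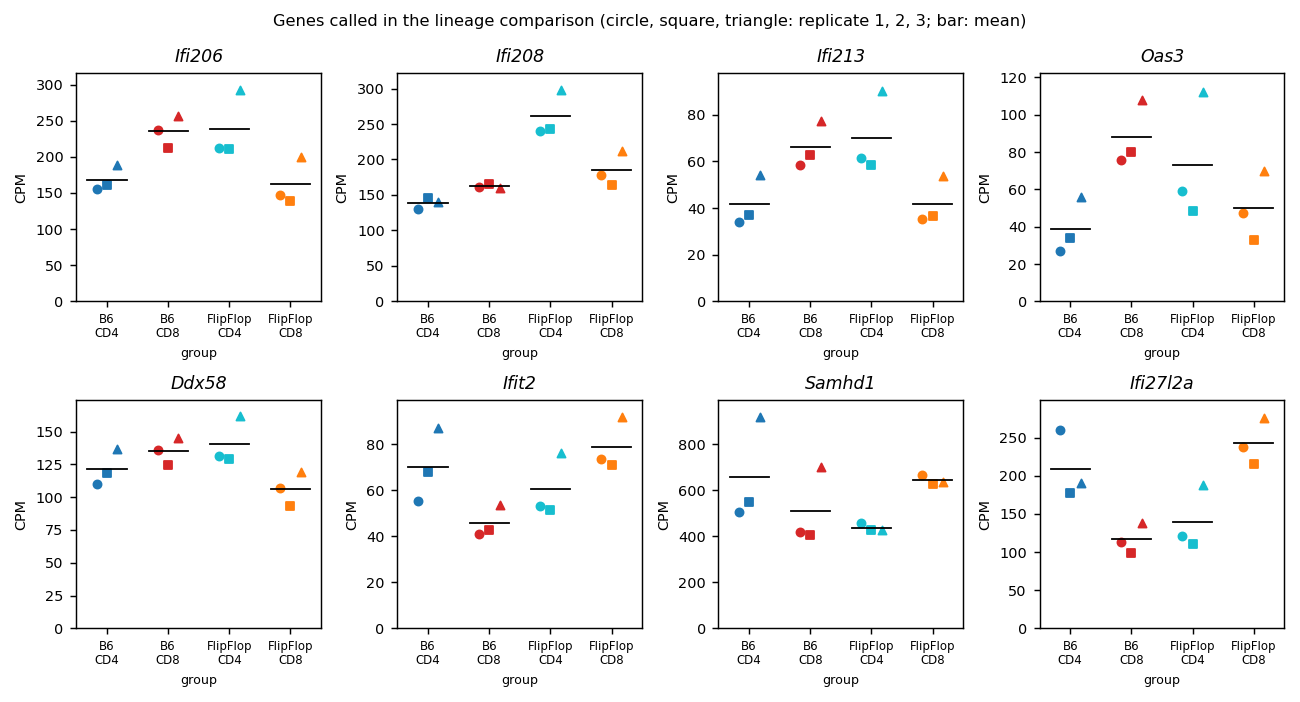
CPM (y axis, from 0) of the 8 genes called in the lineage comparison, by group (x axis), with a point for each library and a bar at the mean of 3 libraries. *Ifi206*, *Ifi208*, *Ifi213*, *Oas3* and *Ddx58* have their higher means in B6 CD8 and FlipFlop CD4, and *Ifit2*, *Samhd1* and *Ifi27l2a* in B6 CD4 and FlipFlop CD8 among groups of the same strain.

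*Oas3*, an oligoadenylate synthetase gene, had the largest difference toward the cytotoxic lineage. *Oas3* measured 26.8, 34.0 and 56.2 CPM in B6 CD4, 47.4, 33.1 and 69.6 in FlipFlop CD8, 75.8, 80.2 and 108 in B6 CD8 and 59.2, 48.4 and 112 in FlipFlop CD4 libraries. Replicate 3 was the highest library in every group, and helper and cytotoxic libraries overlapped. The difference was -0.86 (standard error 0.24, adjusted p = 0.0133). *Oas1a* (0.46), *Oas2* (0.15), *Oasl1* (-0.13) and *Oasl2* (-0.07) were not called. *Ddx58*, which encodes the RNA sensor RIG-I, was lower in the helper lineage by a small margin. *Ddx58* measured 110.2, 118 and 137 CPM in B6 CD4, 107, 93.5 and 119 in FlipFlop CD8, 136, 125 and 145 in B6 CD8 and 131, 129.4 and 162 in FlipFlop CD4 libraries. Its lineage difference was -0.28, and it lost its call (-0.16, adjusted p = 0.208) in values without the composition factor. The other sensors were not called, with 0.49 for *Ifih1* (MDA5), -0.04 for *Dhx58* (LGP2) and -0.02 for *Zbp1*.

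Among the antiviral effectors the 3 calls were all toward the helper lineage. *Ifi27l2a* encodes a small mitochondrial protein of the ISG12 family. *Ifi27l2a* measured 259.6, 178 and 190.1 CPM in B6 CD4, 238, 215 and 276 in FlipFlop CD8, 113, 99.2 and 138 in B6 CD8 and 121, 111 and 188 in FlipFlop CD4 libraries. The lowest helper-lineage library, at 178 CPM, lay just under the highest cytotoxic-lineage library, at 188 CPM, and the difference was 0.83 (standard error 0.14, adjusted p = 0.000488). *Ifit2* measured 55.2, 68.2 and 87.1 CPM in B6 CD4, 73.8, 71.1 and 92.0 in FlipFlop CD8, 41.0, 42.6 and 53.8 in B6 CD8 and 53.3, 51.7 and 76.3 in FlipFlop CD4 libraries. *Ifit2* is a neighbor of *Ifit1* on chromosome 19 that acts on viral RNA, and its difference was 0.50 (standard error 0.13, adjusted p = 0.00949). *Samhd1* measured 503, 550.1 and 917 CPM in B6 CD4, 667, 628 and 635 in FlipFlop CD8, 419.9, 405 and 702 in B6 CD8 and 457, 428 and 427 in FlipFlop CD4 libraries. *Samhd1*, which breaks down deoxynucleotides and so limits retroviruses, had B6 values that were highest in replicate 3 and FlipFlop values that were nearly flat, and a difference of 0.46 (standard error 0.16, adjusted p = 0.0352). Its call was lost in 9 of the 12 fits that each left out a library, among them that without B6 CD4 replicate 3 (0.33, adjusted p = 0.0594).

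The other *Ifit* genes were not called, with lineage differences of 0.04 for *Ifit1*, -0.58 for *Ifit3* and 0.03 for *Ifit3b*. *Ifit3* and *Ifit3b* are near-identical copies, so their values are uncertain. The widest uncalled differences of the effectors were those of *Ifi44* (0.95), with 2.02, 2.28 and 9.66 CPM in CD8 and 0.788, 0.761 and 6.21 CPM in CD4 libraries of FlipFlop mice, and of *Mx1* (-0.78). The remaining effectors, *Isg15*, *Isg20*, *Rsad2*, *Eif2ak2* (PKR), *Bst2* (tetherin), *Ifi35*, *Xaf1*, *Rtp4* and *Trim30a*, were not called. Nor were the 5 genes of signaling and transcription, whose differences ran from -0.28 (*Irf1*) to 0.15 (*Irf9*), the ADP-ribosylation genes *Parp9*, *Parp14* and their partner *Dtx3l* (-0.31 to -0.05), the GTPases (-0.39 for *Gbp2* to 0.33 for *Gbp3*) or the immunoproteasome subunits *Psmb8* and *Psmb9* (-0.17 and -0.20).

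The strains were also taken apart, since the lineage difference is the mean of the B6 and the reversed FlipFlop difference. Of B6 CD4 against B6 CD8 libraries, 5 members were called, 2 higher and 3 lower in CD4, against 25.4% of all tested genes, 14.6% higher and 10.8% lower. *Ifi27l2a* differed by 0.83 (standard error 0.20, adjusted p = 0.00817) and *Ifit2* by 0.60 (standard error 0.19, adjusted p = 0.0326). *Oas3* differed by -1.21 (standard error 0.34, adjusted p = 0.0205), *Ifi213* by -0.68 (standard error 0.22, adjusted p = 0.0359) and *Ifi206* by -0.48 (standard error 0.15, adjusted p = 0.037). For each of these 5 genes the CD4 and CD8 libraries did not overlap, as for 8 members in all and 37.8% of tested genes. There was 1 call without B6 CD4 replicate 2 (21.7% of all tested genes), 2 without B6 CD4 replicate 1 (27.7%), and 3 without each of B6 CD8 replicates 1, 2 and 3 in turn (19.6% to 21.8%). None (0) of the calls was lower in CD4 without B6 CD4 replicate 1, B6 CD4 replicate 2 or B6 CD8 replicate 3. Without the composition factor 2 members were higher and 1 lower, against 25.9% of all. Without replicate 3 of every group 11 were called, 4 higher and 7 lower, against 17.3% of all tested genes. With the replicate number as a block 21 members were called, 8 higher and 13 lower in B6 CD4, against 30.0% of all tested genes, although the B6 numbers are not shown to pair the libraries.

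Of FlipFlop CD4 against FlipFlop CD8 libraries, 5 members were called as well, 4 higher and 1 lower in CD4, against 31.3% of all tested genes, 15.3% higher and 16.0% lower. The 3 Ifi200 genes now had the opposite sign, with 0.73 (standard error 0.22, adjusted p = 0.0217) for *Ifi213*, 0.56 (standard error 0.15, adjusted p = 0.015) for *Ifi206* and 0.50 (standard error 0.10, adjusted p = 0.00257) for *Ifi208*. *Ddx58* was higher in FlipFlop CD4 T cells by 0.40 (standard error 0.12, adjusted p = 0.0198), and *Ifi27l2a* had a difference of -0.83 (standard error 0.20, adjusted p = 0.00723). The libraries of both groups did not overlap for 9 members, against 47.2% of tested genes. In values without the composition factor the split turned to 0 higher and 4 lower, against 32.3% of all tested genes, while the median of all tested genes moved from 0.04 to -0.13. There were 2 calls without FlipFlop CD8 replicate 2 (24.5% of all), 3 without FlipFlop CD8 replicate 1 (27.8%), and 11 without replicate 3 of every group, 5 higher and 6 lower, against 20.6% of all tested genes. Without FlipFlop CD4 replicate 3 the split turned as well, to 1 higher (*Ifi208*) and 6 lower (*Ifih1*, *Ifit2*, *Isg20*, *Ifi44*, *Ifi27l2a* and *Oas1a*), against 28.7% of all, and *Ddx58*, *Ifi206* and *Ifi213* lost their calls. Of the marker genes in the main fit, 4 of 5 naive markers were higher in FlipFlop CD4. Lower there were 5 of 5 regulatory T cell, 3 of 6 memory or effector and 4 of 8 myeloid markers. Of 7 T cell markers 2 were higher and 1 lower, and of 3 NK cell markers 2 and 1. Of 7 B cell and of 4 plasmacytoid dendritic cell markers 1 went each way. The part of these cells in the members' differences was not tested.

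Since same-numbered FlipFlop libraries deviated together, the FlipFlop comparison was also fitted with the replicate number as a block. With the block 24 members were called, 17 higher and 7 lower in FlipFlop CD4, against 36.4% of all tested genes, 18.4% higher and 18.0% lower. *Gbp3* measured 26.0, 16.3 and 20.5 CPM in CD4 and 47.7, 36.5 and 35.6 CPM in CD8 libraries of FlipFlop mice, and differed by -0.93 (standard error 0.08, adjusted p = 4.82e-05) in the blocked fit. *Ifi44* differed by -0.90 (standard error 0.14, adjusted p = 0.00137) and *Ifi27l2a* by -0.83 (standard error 0.13, adjusted p = 0.00165). *Ifit3* measured 29.2, 32.6 and 96.6 and 19.7, 17.1 and 66.8 CPM in the same groups, higher in CD4 in each of the 3 pairs, with a difference of 0.67 (standard error 0.09, adjusted p = 0.000456). *Oas1a*, in contrast, was lower in CD4 in each pair, at 21.7, 12.6 and 40.3 against 37.2, 23.9 and 47.5 CPM, and differed by -0.63 (standard error 0.14, adjusted p = 0.00751). The other members called lower in CD4 were *Ifih1*, *Ifit2* and *Samhd1*. Those called higher, beside *Ifit3*, the 3 Ifi200 genes and *Ddx58*, were *Irf1*, *Irf7*, *Usp18*, *Mx1*, *Bst2*, *Trim30a*, *Oas3*, *Oasl1*, *Parp9*, *Irgm1*, *Gbp2* and *Psmb9*. Genes of the same family went opposite ways within this list: *Ifit3* and *Ifit2*, *Oas3* and *Oas1a*, *Gbp2* and *Gbp3*, and the RNA sensors *Ddx58* and *Ifih1*.

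**Figure D4:**
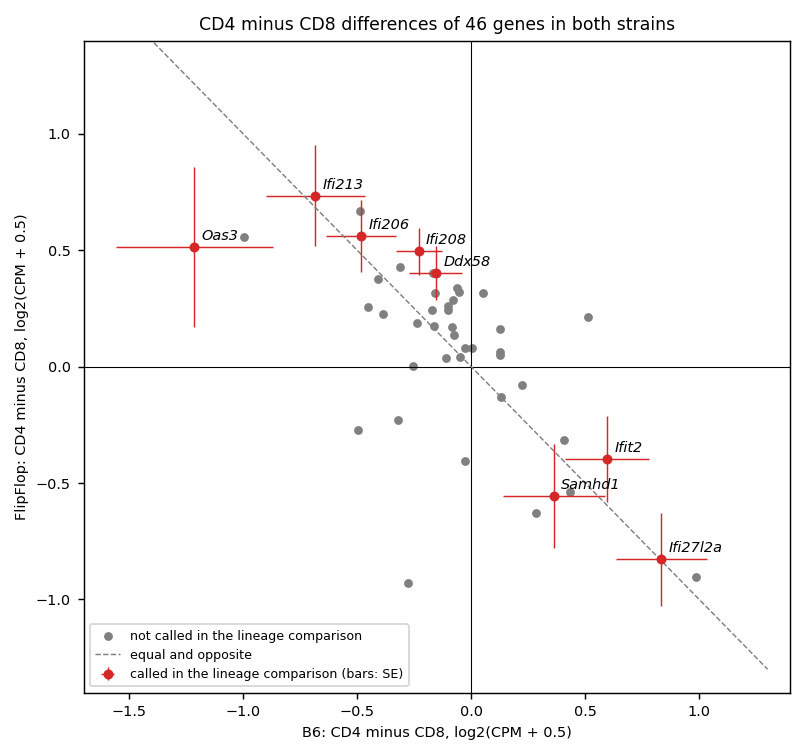
CD4 minus CD8 difference in B6 (x axis) and FlipFlop T cells (y axis), both in log2(CPM + 0.5), for the 46 genes; red points with standard error bars are the 8 genes called in the lineage comparison and the dashed line marks equal and opposite differences. *Ifi27l2a* lies near the line at 0.83 and -0.83, *Ifi213* at -0.68 and 0.73, and *Oas3* off it at -1.21 and 0.51.

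The surface coreceptor was compared over both strains, as both CD4 groups minus both CD8 groups. Of the 46 members 0 were called by limma, against 5.49% of all tested genes, and 1, *Gbp3*, had an unadjusted p under 0.05, against 18.6% of all. With the replicate block 3 were called, *Oas2* higher and *Oas3* and *Gbp3* lower in CD4 T cells, against 8.23% of all. *Gbp3*, a guanylate-binding protein, measured 19.0, 21.2 and 42.9 CPM in CD4 and 22.4, 25.5 and 54.3 CPM in CD8 libraries of B6 mice beside the FlipFlop values above, and its coreceptor difference was -0.60 (standard error 0.24, adjusted p = 0.198). The members' differences ran from -0.60 to 0.36 (*Oas2*), with a median of 0.04 against 0.01 over all tested genes. Missing the threshold does not show that these genes are alike in CD4 and CD8 T cells, given standard errors such as 0.24 for *Gbp3* and 0.79 for *Oasl2*. Of the marker genes, 6 of 6 memory or effector, 2 of 5 regulatory T cell, 1 of 4 plasmacytoid dendritic cell and 1 of 3 NK cell markers were lower in CD4 T cells. Higher were 2 of 5 naive and 3 of 7 T cell markers, and no B cell, myeloid or red blood cell marker was called. The part of these cells in the members' differences was not tested.

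Between the strains, as both FlipFlop groups minus both B6 groups, 5 members were called, 1 higher and 4 lower in FlipFlop T cells, against 31.2% of all tested genes, 15.8% higher and 15.4% lower. *Oasl2*, a synthetase-like gene, had the largest difference. *Oasl2* measured 14.4, 11.8 and 38.1 CPM in B6 CD4, 4.89, 0.198 and 13.2 in FlipFlop CD8, 15.4, 14.2 and 37.5 in B6 CD8 and 5.09, 0.181 and 14.1 in FlipFlop CD4 libraries. Replicate 2 of both FlipFlop groups lay at 0.181 and 0.198 CPM, near the 0.109 and 0.0992 CPM of 3 reads, while the third FlipFlop libraries, at 14.1 and 13.2 CPM, lay within the range of B6 replicates 1 and 2. No other member had a library so far below the rest of its group, as the lowest ratio to the other 2 libraries was 0.0189 for *Oasl2* and 0.218 for the next. The strain difference was -2.40 (standard error 0.79, adjusted p = 0.0386), the only member over 5-fold (1 of 46, against 0.379% of all), and without replicate 2 of both FlipFlop groups it was -1.18 (adjusted p = 0.0955), an alternative chosen after seeing these values. Its call was lost in 10 of 21 alternatives, among them the replicate block (adjusted p = 0.0509), a pseudocount of 0.1 (0.051) and 7 fits that each left out a library (0.052 to 0.086). *Oasl2* lies on chromosome 5 from 114896936 to 114912234 (GRCm38).

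The immunoproteasome subunits were both lower in FlipFlop T cells. *Psmb9* measured 191, 149 and 213 CPM in B6 CD4, 138, 108 and 106 in FlipFlop CD8, 167, 175 and 235 in B6 CD8 and 171, 133 and 139 in FlipFlop CD4 libraries. *Psmb9* and *Psmb8* replace constitutive subunits so that the proteasome yields peptides suited to MHC class I, and the strain difference of *Psmb9* was -0.51 (standard error 0.12, adjusted p = 0.00823). *Psmb8* measured 544, 409 and 519 CPM in B6 CD4, 416, 346 and 346 in FlipFlop CD8, 483, 486 and 609 in B6 CD8 and 484, 429 and 398 in FlipFlop CD4 libraries. Its difference was -0.33 (standard error 0.09, adjusted p = 0.0191). Replicates 2 and 3 of FlipFlop CD8 were the lowest libraries for both genes, and FlipFlop CD4 and B6 libraries overlapped. *Ifi35*, a partner of the interferon-induced protein NMI, had a difference of -0.25 (standard error 0.08, adjusted p = 0.0298), with 52.9 ± 2.96 CPM for FlipFlop CD8 and 66.8 ± 6.26 CPM for B6 CD4 libraries (SD, n = 3), and this call too was lost in 10 of 21 alternatives, among them the replicate block. Without replicate 3 of every group *Psmb9* (-0.32), *Psmb8* (-0.20) and *Ifi35* (-0.23) were no longer called, with adjusted p = 0.121, 0.237 and 0.13. In that fit 7 members were called, against 10.4% of all tested genes, *Ifi208* higher and *Oasl2*, *Oasl1*, *Dhx58*, *Ifit3*, *Ifit3b* and *Ifi44* lower in FlipFlop T cells.

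*Ifi208* alone was called higher in FlipFlop T cells. Its means were 261 ± 32.3 and 185 ± 24.4 CPM for CD4 and CD8 T cells of FlipFlop, and 138 ± 7.60 and 162 ± 2.72 CPM for those of B6 mice (SD, n = 3). The difference of 0.54 (standard error 0.07, adjusted p = 0.000298) was called under each of the 21 alternatives to this fit. Its near-copies *Ifi206* and *Ifi213* had strain differences of -0.03 and 0.04. *Usp18*, the protease that removes ISG15 and the only member on chromosome 6, where both altered loci lie, had -0.16 (standard error 0.24, adjusted p = 0.642).

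Markers of cell types were compared between the strains, where 31.2% of all tested genes were called, 15.8% higher and 15.4% lower in FlipFlop T cells. Of the regulatory T cell markers 5 of 5 were called higher in FlipFlop T cells, with the sums given above, and of the memory or effector markers 3 of 6, with sums of 519 to 559 CPM in FlipFlop CD4 and 873 to 1219 in FlipFlop CD8 against 838 to 929 in B6 CD8 and 414 to 518 among B6 CD4 libraries. Of the red blood cell markers 4 of 4 were called lower, with sums of 6.67 to 14.2 CPM in FlipFlop and 15.9 to 28.8 CPM in B6 libraries. Also lower were 4 of 7 T cell, 3 of 7 B cell and 2 of 5 naive T cell markers. The B cell sums overlapped, with 560.0 to 687 CPM in FlipFlop and 536 to 617 in B6 libraries, and the naive sums were 3763 to 3988 CPM in FlipFlop CD8 and 4553 to 5159 in the other groups. Of the remaining lists 1 of 8 myeloid markers was lower, 1 of 4 plasmacytoid dendritic cell markers was higher, and of the 3 NK cell markers 1 was higher and 1 lower. For FlipFlop CD8 minus B6 CD4, with 27.6% of all tested genes called, 5 of 6 memory or effector and 5 of 5 regulatory T cell markers were higher, while 5 of 7 T cell, 3 of 7 B cell, 3 of 5 naive T cell and 3 of 4 red blood cell markers were lower. The part of these cells in the members' strain differences was not tested.

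**Figure D5:**
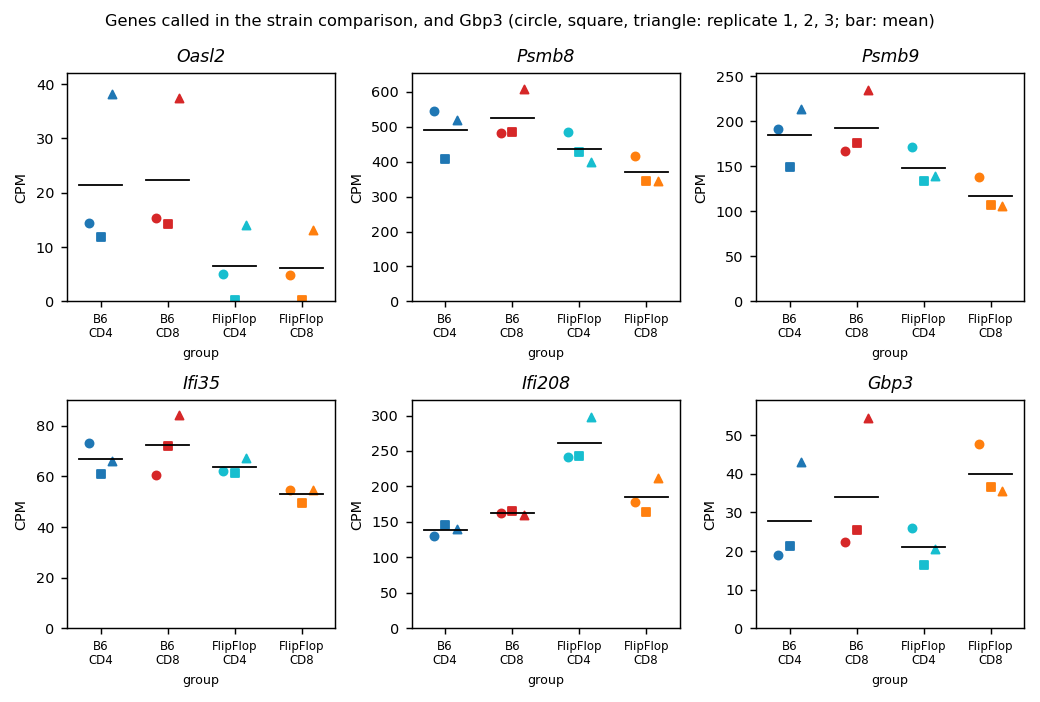
CPM (y axis, from 0) of the 5 genes called in the strain comparison, and of *Gbp3*, by group (x axis), with a point for each library and a bar at the mean of 3 libraries. *Oasl2* lies at 0.181 and 0.198 CPM in replicate 2 of the FlipFlop groups, and every *Ifi208* library of FlipFlop CD4 lies above every B6 library.

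Groups of the same lineage but opposite coreceptor were compared across strains. Of the cytotoxic-lineage groups, 1 member was called between FlipFlop CD4 and B6 CD8, *Ifi208*, by 0.68 (standard error 0.10, adjusted p = 0.00135), against 7.92% of all tested genes and 4.17% called higher in FlipFlop CD4. Of the helper-lineage groups, 4 members were called between FlipFlop CD8 and B6 CD4, 1 higher and 3 lower in FlipFlop CD8, against 27.6%, 13.2% higher and 14.4% lower. *Ifi208* was higher in FlipFlop CD8 by 0.41 (standard error 0.10, adjusted p = 0.0129), and the difference was -0.65 (standard error 0.16, adjusted p = 0.0151) for *Psmb9*, -0.41 (standard error 0.13, adjusted p = 0.0382) for *Psmb8* and -0.33 (standard error 0.11, adjusted p = 0.0427) for *Ifi35*. *Ifi35* lost this call in 13 of 21 alternatives (adjusted p 0.0221 to 0.241 over all 21), among them the replicate block and median-of-ratios rescaling, and *Psmb8* in 8 of 21 (0.0138 to 0.177). Both lost it in the fit of only these 2 groups. No member was called without FlipFlop CD8 replicate 3 (0 of 46, against 14.3% of all tested genes), 1 without FlipFlop CD8 replicate 2 (14.6%), and 2 without B6 CD4 replicate 1 (18.2%) or FlipFlop CD4 replicate 2 (24.7%), so that the share over all genes fell as well. Without B6 CD4 replicate 3 the split turned to 3 higher (*Ifi208*, *Gbp3* and *Gbp7*) and 1 lower (*Psmb9*), against 32.4% of all. Without replicate 3 of every group 6 members were called between the helper-lineage groups, against 11.0% of all tested genes, and these were other genes: *Gbp3* and *Gbp7* were higher and *Ifit3*, *Ifit3b*, *Oas2* and *Oasl1* lower in FlipFlop CD8. Without the composition factor 2 members were higher and 1 lower, against 29.2% of all. These comparisons share libraries with those above and add no independent evidence to them.

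The genes upstream of the members were followed as well, from lists chosen with the members. Of 5 listed interferon receptor genes, 1 was higher and 3 were lower in the helper lineage, against 39.3% of all tested genes. In B6 alone all 4 of these were called, and in FlipFlop alone only *Il10rb* was. *Ifngr1*, the ligand-binding chain for interferon-gamma, measured 122.8, 126 and 157 CPM in B6 CD4 and 196, 231 and 241 in B6 CD8, against 179, 158 and 136 for FlipFlop CD8 and 192, 177 and 187 for FlipFlop CD4 libraries, with a lineage difference of -0.48 (adjusted p = 0.00056). *Ifngr2*, its signaling partner, differed the other way, by 0.42 (adjusted p = 0.000789). *Ifnar2* had -0.25 (adjusted p = 0.00124) and *Il10rb*, shared with interferon-lambda and IL-10, had -0.60 (adjusted p = 3.82e-06), while *Ifnar1* was not called. Of the JAK kinase genes *Jak1*, *Jak2* and *Tyk2*, *Jak1* was lower in the helper lineage with -0.33 (adjusted p = 0.00102) and *Jak2* higher with 0.21 (adjusted p = 0.0473). *Ifng* itself had a lineage difference of 1.44 (adjusted p = 0.0124), at levels up to 5.39 CPM.

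Among 8 inhibitors of the pathway, 2 were higher (*Pias3*, 0.41, and *Ptpn11*, 0.28) and 1 lower in the helper lineage (*Ptpn6*, which encodes the phosphatase SHP-1, -0.37), which is near the 39.3% of all tested genes. *Socs1*, the feedback inhibitor of JAK kinases, was not called and measured 36.7, 37.3 and 59.0 CPM in CD4 libraries of B6 and 34.8, 27.7 and 38.3 CPM in those of FlipFlop mice. Of 9 other IRF genes 4 were called for lineage, also near that share. *Irf4*, which acts in activated and regulatory T cells, had 1.57 (adjusted p = 1.5e-07), *Irf5* had 1.89 (adjusted p = 1.42e-07) and *Irf2bp1* had -0.17 (adjusted p = 0.0349). Regulatory T cell markers were also higher in helper-lineage libraries, with the sums given above, and their part in these differences was not tested. Of 9 tested sensing adaptors and kinases, *Tmem173*, which encodes STING, was higher (0.28) and *Trim25*, which activates RIG-I, lower in the helper lineage (-0.25), against the same 39.3%.

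The 80 other interferon-stimulated genes that were tested held 36 calls for lineage, 13 higher and 23 lower in the helper lineage, against 39.3% of all tested genes. By size the first 8 were *Trim30c* (-3.71), *Apol9b* (2.72), *Ifitm10* (-2.57), *Plac8* (-2.52), *Apol9a* (2.08), *Ifitm2* (1.94), *Ms4a4c* (-1.89) and *Epsti1* (-1.39). *Plac8* measured 117, 142 and 175 CPM in B6 CD8 libraries and at most 11.72 CPM in any other, and it was not called in FlipFlop alone, whereas the other 7 were called in both strains. *Trim30c*, a near relative of the member *Trim30a*, measured at most 0.400 CPM in helper-lineage and 6.34 to 9.78 CPM in the cytotoxic-lineage libraries, whereas *Trim30a* had -0.35 and was not called. The Ifi200 gene *Ifi214*, from the same cluster as the members, was lower in the helper lineage with -0.97 (adjusted p = 6.21e-05), and *Ifi211*, another Ifi200 gene, was higher with 1.21 (adjusted p = 0.000187), at levels up to 2.31 CPM. For the coreceptor 0 were higher and 2 lower in CD4 T cells, *Plac8* (-2.18) and *Epsti1* (-0.63), against 5.49% of all tested genes. Between strains 6 were higher and 16 lower in FlipFlop T cells, against 15.8% and 15.4% of all tested genes. *Psmb10*, the third immunoproteasome subunit, was lower with -0.57 (adjusted p = 0.00275), as were the proteasome activator genes *Psme1* (-0.33) and *Psme2* (-0.44).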

How the data were processed

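The 12 RNA libraries, 3 for each of the 4 sorted LN T cell populations, were grouped and numbered by their sample titles. The authors made libraries with a low-input kit from RNA of integrity number above 9 and sequenced them as paired-end reads. The paper names STAR and mm10, and the submitters' processing notes name Trimmomatic, TopHat and mm10. The program that counted the reads, the annotation and the filter on low values are not given in the sources used here. A single table was deposited, and its normalized signal is CPM over a TMM factor that the authors set per library, so that columns sum to 875501 to 1081793. Values are whole steps of 0.01 of a read, but only 84.8% to 86.4% of those under 100 CPM are whole reads within 0.001 of a read, so no count test was run. Column sums and step sizes gave 26600000 to 33100000 reads per library. The table had 0 columns left unused and 0 pairs of libraries with identical values. Its 12809 gene identifiers all matched GENCODE M21 on GRCm38.

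The 11595 genes that reached 1 CPM in 3 or more libraries were transformed to log2(CPM + 0.5), a scale that understates changes of low genes, and entered limma 3.58.1 under R 4.3.3 (lmFit, then eBayes with a trend on mean level), as 4 group means over all 12 libraries and 8 residual degrees of freedom. P-values were adjusted over all tested genes by the Benjamini-Hochberg method and called under 0.05. Deviations of same-numbered CD4 and CD8 libraries from group means, over all tested genes, had correlations of 0.443, 0.271 and 0.513 in FlipFlop and of 0.184, 0.0887 and 0.352 in B6 T cells. A limit of 0.1 for every pair was passed by the FlipFlop numbers only. B6 missed it through replicate 2 (0.0887), so pairing of the B6 libraries was not shown but is not excluded.

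The members and all gene lists were chosen with earlier results of these data known, and a few other genes are not reported here. Every member is accounted for by role, with full statistics for at most the 6 largest called differences of a comparison and, in each pathway list, at most 8 called genes named by size. Alternatives were pseudocounts of 0.1 and 1, no filter, a mean of at least 5 CPM, median-of-ratios rescaling, columns scaled to the same total, fits of 2 groups, a limit of 5-fold at p under 0.05, a replicate block, and each library left out. The 5-fold limit is that of the study's methods, whereas the legend of its heat map gives a stricter p. Plots were made with matplotlib 3.10.9 on python 3.11.15.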

Additional observations from a re-analysis of the deposited data

Results flagged for a closer look

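The CD4 minus CD8 difference of 8 members differed between the strains by a test of the interaction of strain and coreceptor, which is the lineage comparison taken as the B6 minus the FlipFlop difference. In the fit without a block this is 8 of 46, under the 39.3% of all tested genes that passed the same test. With the replicate block 28 members passed, against 44.5% of all tested genes. Without replicate 3 of every group 16 passed, against 27.9%. Where the members stand against all genes thus depends on the fit. On the log2(CPM + 0.5) scale it was -1.73 (standard error 0.49) for *Oas3*, -1.42 (standard error 0.31) for *Ifi213*, -1.04 (standard error 0.22) for *Ifi206*, -0.73 (standard error 0.14) for *Ifi208* and -0.56 (standard error 0.16) for *Ddx58*, which had lower means in B6 CD4 than in B6 CD8 and higher means in FlipFlop CD4 than in FlipFlop CD8. It was 1.66 (standard error 0.28) for *Ifi27l2a*, 0.99 (standard error 0.26) for *Ifit2* and 0.92 (standard error 0.31) for *Samhd1*, which had the opposite signs. Adjusted p-values from limma were 0.0133, 0.00274, 0.00219, 0.00146, 0.0175, 0.000488, 0.00949 and 0.0352 in the order named. In B6 alone the differences of *Ifi208* (-0.23), *Ddx58* (-0.15) and *Samhd1* (0.36) were not called, and in FlipFlop alone those of *Oas3* (0.51), *Ifit2* (-0.40) and *Samhd1* (-0.56) were not.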

How the results depend on the processing

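The 28 member differences called in the 7 comparisons were refitted 580 times over the alternatives. None changed sign (0), 490 kept their call and 90 lost it. In the lineage comparison *Ifi27l2a*, *Oas3*, *Ifi206*, *Ifi208*, *Ifi213* and *Ifit2* were called under all 20 alternatives. Pseudocounts, filters and median-of-ratios rescaling kept every count of members within 1.5 times. Scaling columns to the same total gave 3 members between B6 CD4 and CD8 in place of 5 (25.9% of all genes), and moved the median of all tested genes by over 0.1 in 4 comparisons, to -0.13 in FlipFlop T cells, 0.09 for lineage, 0.10 for strain and 0.15 for FlipFlop CD8 minus B6 CD4. At p under 0.05 and over 5-fold, 1 member remained for strain (*Oasl2*) and 0 in each other comparison. Fits of only the 2 groups called 9 members between FlipFlop CD4 and CD8 (33.3% of all) and 2 for FlipFlop CD8 minus B6 CD4 (12.9%).

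With a replicate block 21 members were called between B6 CD4 and CD8 (8 higher, 13 lower), 24 in FlipFlop T cells, 28 for lineage, 3 for the coreceptor and 3 for strain, where *Oasl2* and *Ifi35* were lost. Over all genes the shares were 30.0%, 36.4%, 44.5%, 8.23% and 20.1%. It left 1 member for FlipFlop CD4 minus B6 CD8 (7.97% of all) and 3 for FlipFlop CD8 minus B6 CD4 (27.5%). B6 numbers are not shown to pair: B6 CD4 replicate 2 correlated with B6 CD8 replicate 1 by 0.155 and with its own number by 0.0887, while every FlipFlop library correlated best with its own number.

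Leaving out each library in turn gave 1 to 6 members between B6 CD4 and CD8, 2 to 7 in FlipFlop T cells, 7 to 11 for lineage, 0 in each fit for the coreceptor, 3 to 6 for strain, 1 in each fit for FlipFlop CD4 minus B6 CD8, and 0 to 5 for FlipFlop CD8 minus B6 CD4. The shares of all genes were 19.6% to 27.7%, 24.5% to 38.1%, 34.6% to 45.1%, 3.42% to 5.21%, 21.4% to 34.6%, 4.44% to 13.5% and 14.3% to 32.4% in the same order. Strain counts of 3 came without B6 CD4 replicate 1, B6 CD8 replicate 2 or 3, or replicate 2 of either FlipFlop group. Of the alternatives chosen after seeing the data, leaving out replicate 3 of every group gave 11, 11, 16, 0, 7, 2 and 6 members in the same order, against 17.3%, 20.6%, 27.9%, 1.79%, 10.4%, 2.79% and 11.0% of all genes. The 2 were *Ifi208* (higher) and *Oasl1* (lower in FlipFlop CD4). Leaving out replicate 2 of both FlipFlop groups gave 1 for strain (14.7% of all genes). Why these counts moved was not tested. The limits are 3 libraries a group, age tied to strain, close gene copies in the Ifi200, *Ifit*, *Oas* and *Gbp* families, and a table without whole reads, which left count models untried.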
